A study of Mus musculus with 12 samples.

Results

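Genes that carry lipid out of cells, and the liver X receptor (LXR) system that controls several of them, were followed in adult mouse neural stem cells (NSCs) as they left the cell cycle. The group holds 10 genes chosen by symbol, Apoe, Clu, Apod, Abca1, Abcg1, Nr1h2, Nr1h3, Mylip, Lpl and Lrp1, out of 17365 genes in the count table. All 10 were found by symbol, and all 10 were among the 13312 genes that passed the filter on low counts.

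RNA was sequenced from 2 adult NSC lines, ANS4 (MF1 strain) and BL6 (C57BL/6 strain), both from the subventricular zone of wild-type mice aged 6 to 8 weeks and both used below passage 10. All cells were adherent cultures in serum-free medium, plated at low density and kept for 3 days in 1 of 3 conditions. EGF/FGF, the proliferating condition, held EGF and FGF2 at 10 ng/ml each, BMP held BMP4 at 10 ng/ml alone (dormant quiescent cells, d-qNSCs) and BMP/FGF held BMP4 and FGF2 at 10 ng/ml each (primed quiescent cells, p-qNSCs). Each line gave 2 biological replicates per condition, so 4 libraries per condition and 12 in all, and since each strain is represented by 1 line, strain and line cannot be told apart. EGF was present only in EGF/FGF, so the contrasts against EGF/FGF remove EGF as well as adding BMP4. BMP against EGF/FGF also removes FGF2.

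In the brain, cholesterol does not cross from blood and is moved between cells on particles built around apolipoprotein E (Apoe), with clusterin (Clu, also called apolipoprotein J) and apolipoprotein D (Apod) as further secreted carriers. The membrane pumps Abca1 and Abcg1 load cholesterol and phospholipid onto such particles, and Lrp1 and related receptors take the particles up. The LXRs, LXRα (Nr1h3) and LXRβ (Nr1h2), are nuclear receptors that bind oxysterols, pair with RXR proteins and switch on Abca1, Abcg1, Apoe and Mylip, a ubiquitin ligase that removes lipoprotein receptors from the cell surface. Lpl, lipoprotein lipase, releases fatty acids from triglyceride-rich particles and can be induced through LXR in some tissues.

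Library totals lay between 18069052 and 19451818 counts, and scaling factors between 0.972 and 1.03. Levels are given as CPM, the count per TMM-scaled library size, and changes as log2 fold changes with their standard error (SE) and false discovery rate (FDR, adjusted over all tested genes) from edgeR's quasi-likelihood test with condition and line as terms. A gene was called at FDR under 0.05. The labelled cell type was checked first. All 7 NSC markers examined (Nes, Sox2, Sox9, Fabp7, Pax6, Egfr, Prom1) were present, and their summed level was 3841 to 4223 CPM in EGF/FGF, 2099 to 2640 under BMP4 alone and 3053 to 3304 in BMP/FGF. Single markers differed in direction. Fabp7 (2184 to 2595 CPM in EGF/FGF and 277 to 665 under BMP4 alone), Nes and Egfr stood lower without overlap under BMP4 alone, while Sox9 (162 to 198 and 718 to 774 CPM), Sox2 (456 to 499 and 653 to 754 CPM), Prom1 and Pax6 stood higher without overlap. The summed level of 8 astrocyte markers was 2689 to 3260 CPM in EGF/FGF, 7624 to 9613 under BMP4 alone and 11819 to 12002 in BMP/FGF. In bulk samples such as these, fewer cells of a type and less RNA per cell cannot be told apart.

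In BMP, 7 of the 10 genes rose against EGF/FGF (Clu, Abca1, Apoe, Lrp1, Abcg1, Nr1h3 and Nr1h2), 2 fell (Apod and Lpl) and Mylip was not called. Of all tested genes, 40.8% were higher and 38.8% lower in that comparison. Of the 10 genes 6 also passed an absolute log2 fold change of 1.5 (Clu, Abca1, Apoe, Lrp1, Apod and Lpl), against 17.8% of all tested genes. In BMP/FGF the same 7 genes rose against EGF/FGF, Lpl fell, and Apod and Mylip were not called, where 40.9% of tested genes were higher and 38.0% lower. There 3 of the 10 (Clu, Apoe and Abca1) passed 1.5, against 16.7%. The median log2 fold change of the 10 genes was 1.06 in BMP and 0.86 in BMP/FGF, beside 0.02 for all tested genes in both. Both comparisons use the same EGF/FGF libraries. These counts and medians include Abcg1, which passed the filter on low counts only through quiescent libraries, and Apod, which passed it through no BMP library. The rise of Abcg1 and the fall of Apod in BMP were thus tied to the filter.

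With FGF2 added to BMP4, 3 of the 10 genes were higher, 3 were lower and 4 were not called. Apoe, Apod and Lpl stood higher with both factors than with BMP4 alone, Clu, Abca1 and Lrp1 stood lower, and Abcg1, Nr1h2, Nr1h3 and Mylip were not called. Among all tested genes 20.1% were higher and 21.3% lower in that comparison. Apod alone of the 10 passed a log2 fold change of 1.5, which 1.59% of all tested genes did, but no BMP library held more than 3 counts of it, and by limma-trend on the rlog values the difference was 0.52. No BMP library helped it pass the filter on low counts, so its direction here was tied to the filter. The median over the 10 genes was -0.05, beside -0.0035 for all tested genes.

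**Figure D1:**
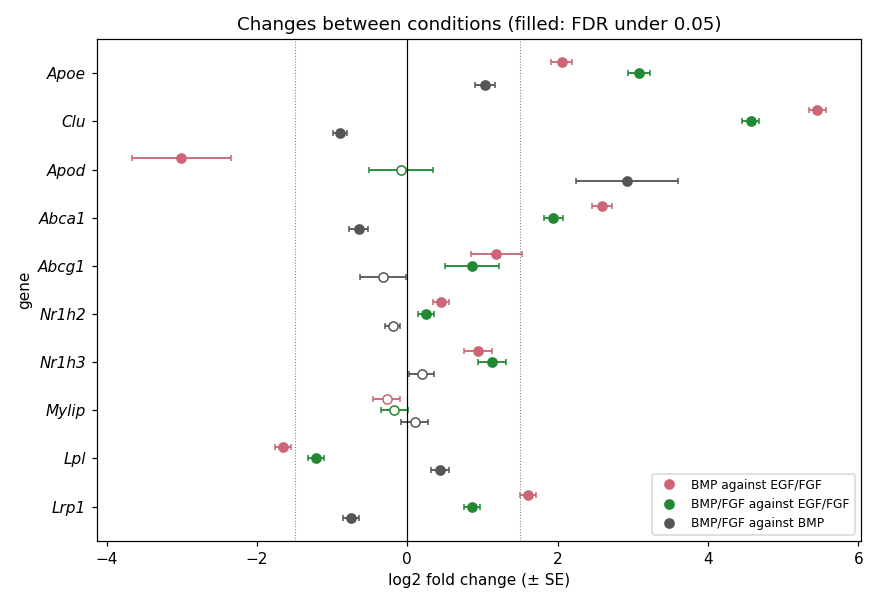
Log2 fold change (x axis, ± SE) of each of the 10 genes (y axis) in BMP against EGF/FGF, BMP/FGF against EGF/FGF and BMP/FGF against BMP, filled where the FDR was under 0.05 and open where not, with dotted lines at 1.5 and -1.5. Clu, Apoe and Abca1 lie far to the right in both comparisons against EGF/FGF, and in BMP/FGF against BMP Apoe lies at 1.03 while Clu lies at -0.89.

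Among the carriers, Apoe was the most abundant of the 10 genes in all 3 conditions. It is encoded on chromosome 7 at 19696109-19699188 (GRCm38, minus strand). In EGF/FGF its level was 1126 and 1159 CPM in the ANS4 libraries and 569.5 and 523.2 in the BL6 libraries. In BMP it was 3886 and 3741 CPM in ANS4 and 2780 and 3055 in BL6. In BMP/FGF it reached 7171 and 6795 CPM in ANS4 and 6642 and 6426 in BL6. The 3 conditions did not overlap, and the order EGF/FGF, BMP, BMP/FGF held in each line. The log2 fold change was 2.05 in BMP (SE 0.14, FDR 2.26e-10), 3.08 in BMP/FGF (SE 0.15, FDR 1.51e-12) and 1.03 between BMP/FGF and BMP (SE 0.14, FDR 1.24e-05).

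In rank by mean CPM among the 17365 genes, Apoe moved from 103 in EGF/FGF to 9 under BMP4 alone and 2 under both factors. Its counts made up 0.0528 to 0.115% of a library in EGF/FGF, 0.287 to 0.387% under BMP4 alone and 0.628 to 0.713% in BMP/FGF. The 250 bases before the most upstream of its 3 annotated RefSeq starts (GRCm38.p6, chr7:19699189-19699438, minus strand, 57.2% G or C) are shown because this was the most abundant member. They held none of the 4 motifs searched on both strands, which were the LXR half-site AGGTCA, a relaxed pair of such half-sites 4 bases apart (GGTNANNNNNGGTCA, the DR4 arrangement that LXR and RXR bind, without its first base and with 2 further bases free), the E-box CACGTG and the TATA box TATAAA. Another of its 3 windows held TATA box matches on both strands, 96 to 91 bases and 100 to 95 bases before that start.

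Apoe, 250 bases before the start: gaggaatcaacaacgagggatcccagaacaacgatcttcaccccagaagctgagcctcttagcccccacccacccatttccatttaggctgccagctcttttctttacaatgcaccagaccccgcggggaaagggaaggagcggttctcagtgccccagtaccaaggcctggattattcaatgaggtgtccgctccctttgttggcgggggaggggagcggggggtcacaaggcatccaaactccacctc

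Clu, encoded on chromosome 14 at 65968483-65981547 (GRCm38, plus strand), codes for a secreted chaperone that binds lipids and misfolded proteins, and had the largest change of the 10 genes. In EGF/FGF its level was 21.8 and 23.3 CPM in ANS4 and 14.3 and 16.2 in BL6. In BMP it was 778 and 833 CPM in ANS4 and 801 and 883 in BL6. In BMP/FGF it was 462 and 439 CPM in ANS4 and 440 and 440 in BL6. The highest EGF/FGF library lay far below the lowest quiescent library, and all 4 BMP/FGF libraries lay below all 4 BMP libraries. The log2 fold change was 5.46 in BMP (SE 0.11, FDR 7.54e-17) and 4.57 in BMP/FGF (SE 0.11, FDR 4.31e-16), a 43.9-fold and a 23.7-fold rise. By absolute log2 fold change Clu ranked 85 of 13312 tested genes in BMP and 106 in BMP/FGF. Between BMP/FGF and BMP it fell by 0.89 on the log2 scale (SE 0.09, FDR 8.94e-07).

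The 2 abundant carriers thus moved apart once FGF2 was present. Per kilobase of the longest transcript, Apoe stood 55.7 ± 11.5 times as high as Clu in EGF/FGF (SD, n = 4), 5.28 ± 0.985 times in BMP and 19.5 ± 0.552 times in BMP/FGF. The ranges of that ratio did not overlap between conditions, with 41.6 to 66.3 in EGF/FGF, 4.45 to 6.42 under BMP4 alone and 18.8 to 19.9 in BMP/FGF.

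Apod, a lipocalin-family carrier encoded on chromosome 16 at 31296192-31314808 (GRCm38, minus strand), was close to the limit of detection throughout. Its counts were 16 and 5 in the ANS4 and 17 and 7 in the BL6 libraries of EGF/FGF. In BMP they were 2 and 0 in ANS4 and 3 and 0 in BL6. In BMP/FGF they were 12 and 7 in ANS4 and 10 and 11 in BL6. No BMP library held more than 3 counts, and every library of the other conditions held at least 5. Apod thus passed the filter on low counts only through EGF/FGF and BMP/FGF libraries, which ties its lower level in BMP to the filter. Summed over the 4 libraries there were 45 counts in EGF/FGF, 5 in BMP and 40 in BMP/FGF. After scaling, BMP held 8.70-fold less than EGF/FGF (95% exact interval 3.46 to 28.1) and BMP/FGF 8.19-fold more than BMP (95% exact interval 3.23 to 26.6), with intervals that cover counting error only.

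The fitted log2 fold changes of Apod, which depend on the prior count at such levels, were -3.00 in BMP against EGF/FGF (SE 0.66, FDR 0.000465) and 2.92 in BMP/FGF against BMP (SE 0.68, FDR 0.00229). BMP/FGF and EGF/FGF overlapped, with a log2 fold change of -0.08 (95% interval -0.99 to 0.82, FDR 0.864). With 1 library left out, the first value ranged from -3.76 to -2.57 and the second from 2.48 to 3.68, and limma-trend on the rlog values, which shrink differences of low counts, gave -0.55 and 0.52, both still called.

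**Figure D2:**
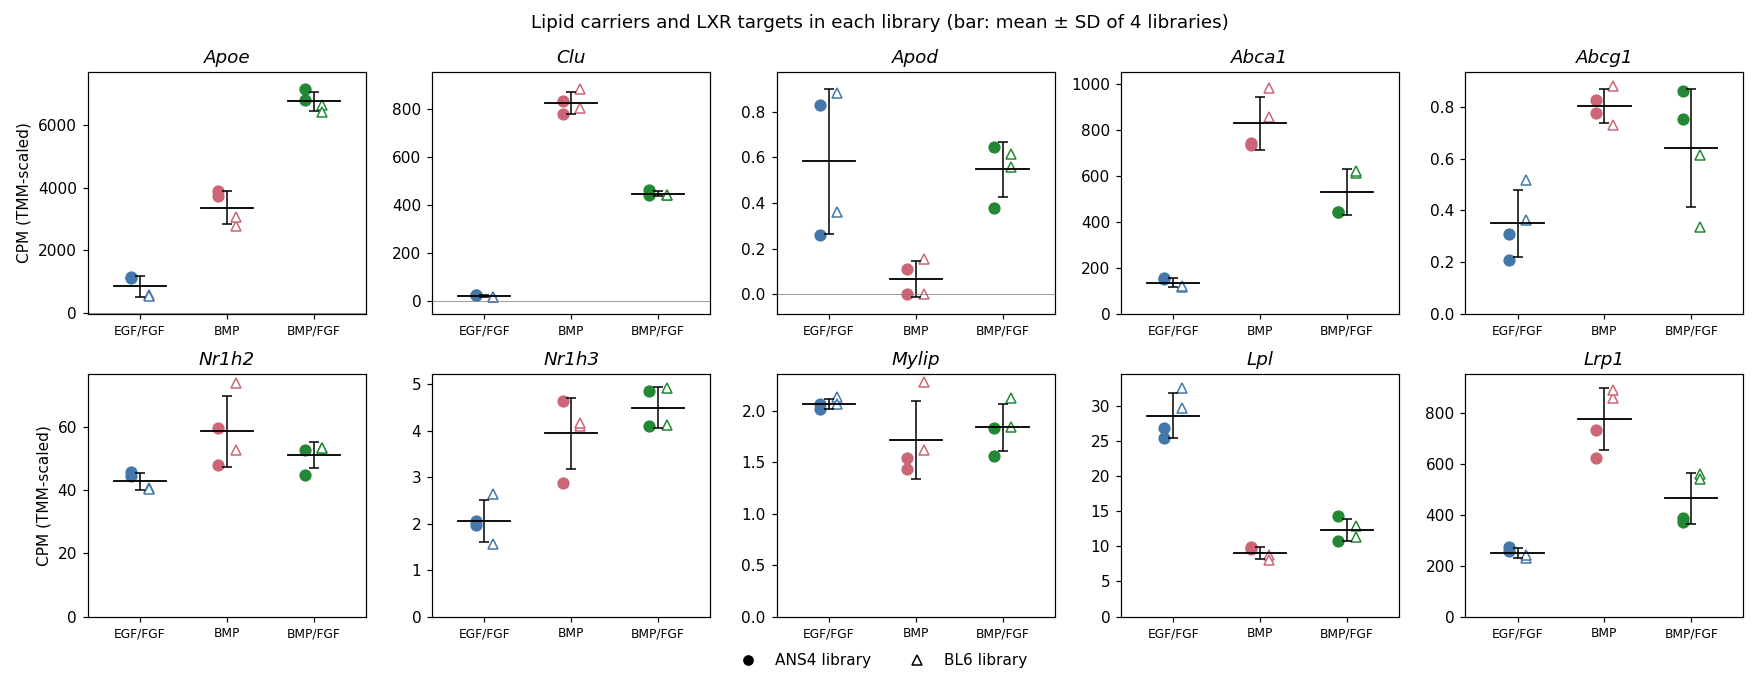
CPM (y axis, linear) of the 10 genes in each of the 12 libraries by condition (x axis), with filled circles for ANS4, open triangles for BL6 and bars for the mean ± SD of 4 libraries. Apoe climbs from EGF/FGF through BMP to BMP/FGF, whereas Clu, Abca1 and Lrp1 are highest in BMP and Lpl is highest in EGF/FGF.

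The efflux pumps differed in level by far more than in direction. Abca1, the pump that hands cholesterol and phospholipid to lipid-poor apolipoproteins, is encoded on chromosome 4 at 53030787-53159895 (GRCm38, minus strand). In EGF/FGF its level was 154 and 154 CPM in ANS4 and 115 and 120.5 in BL6. In BMP it was 740.5 and 734 CPM in ANS4 and 981 and 853 in BL6. In BMP/FGF it was 443 and 444 CPM in ANS4 and 612 and 619 in BL6. The 3 conditions did not overlap, and BMP was the highest in each line. Abca1 rose by 2.59 on the log2 scale in BMP (SE 0.13, FDR 3.24e-12) and by 1.94 in BMP/FGF (SE 0.13, FDR 1.45e-10), and fell by 0.65 between BMP and BMP/FGF (SE 0.12, FDR 0.000417).

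Of the 10 genes 7 had promoter windows in the RefSeq table used, 10 windows in all, and 3 (Clu, Abcg1 and Lpl) had none. Abca1 was the one member with a relaxed DR4 match, which stood in 0.177% of the 32851 windows of this length in the table. The match lay on the strand opposite to the gene, 67 to 53 bases before the start. The same window held an E-box 147 to 142 bases and a TATA box 29 to 24 bases before the start, motifs found in 6.02% and 12.4% of all windows. The exact half-site AGGTCA, which can lie within a relaxed DR4, stood in 14.0% of all windows and in 0 of the 10 member windows. These matches describe the letters only, and binding was not measured. The window (GRCm38.p6, chr4:53159896-53160145, minus strand, 61.6% G or C) is shown with the E-box, the DR4 match and the TATA box in capitals, in that order.

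Abca1, 250 bases before the start: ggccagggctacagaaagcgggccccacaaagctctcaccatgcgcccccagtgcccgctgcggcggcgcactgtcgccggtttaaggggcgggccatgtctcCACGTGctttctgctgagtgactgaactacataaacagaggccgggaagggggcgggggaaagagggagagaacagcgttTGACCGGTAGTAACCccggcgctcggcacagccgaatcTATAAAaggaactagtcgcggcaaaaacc

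Abcg1, the pump that adds cholesterol to particles already carrying lipid, is encoded on chromosome 17 at 31057675-31117988 (GRCm38, plus strand) and overlaps a small annotated ribosomal RNA gene on its own strand, Gm25447, so that reads could be shared. Its counts were 6 and 4 in the ANS4 and 7 and 10 in the BL6 libraries of EGF/FGF. In BMP they were 15 and 14 in ANS4 and 17 and 14 in BL6. In BMP/FGF they were 16 and 14 in ANS4 and 11 and 6 in BL6. All BMP libraries lay above all EGF/FGF libraries, while BMP/FGF overlapped both. The log2 fold change was 1.19 in BMP (SE 0.34, FDR 0.00437) and 0.86 in BMP/FGF (SE 0.36, FDR 0.0363), and BMP/FGF against BMP gave -0.32 (95% interval -0.97 to 0.33, FDR 0.431).

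The rise of Abcg1 in BMP/FGF was not firm. It lost its call when ANS4 EGF/FGF replicate 1 or 2, ANS4 BMP/FGF replicate 1 or 2, BL6 EGF/FGF replicate 1 or BL6 BMP/FGF replicate 1 was left out (FDR 0.0557 to 0.131), and with the replicate number as a block the FDR was 0.0518. Within lines the log2 fold change in the BL6 libraries alone was 0.09 (FDR 0.882), and there the rise in BMP was 0.84 (FDR 0.115). By limma-trend on the rlog values neither rise was called (0.24 in BMP, FDR 0.0998, and 0.19 in BMP/FGF, FDR 0.201). By the DESeq2 Wald test the rise in BMP/FGF was not called (FDR 0.0837). Abcg1 passed the filter on low counts only through quiescent libraries, which ties the direction of its change from EGF/FGF to the filter. Per kilobase of the longest transcript, Abca1 stood 254 ± 128 times as high as Abcg1 in EGF/FGF, 586 ± 74.6 times in BMP and 561 ± 348 times in BMP/FGF (SD, n = 4). In BMP/FGF the range (292 to 1050) overlapped those of both other conditions.

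Both LXR genes were measured, and Nr1h2 (LXRβ, chromosome 7, 44549616-44553951, minus strand, GRCm38) was the more abundant in every library. Its level in EGF/FGF was 45.7 and 44.4 CPM in ANS4 and 40.8 and 40.3 in BL6. In BMP it was 47.9 and 59.7 CPM in ANS4 and 52.8 and 73.9 in BL6. In BMP/FGF it was 44.8 and 52.6 CPM in ANS4 and 53.5 and 53.5 in BL6. BMP lay above EGF/FGF without overlap but with a wide spread between replicates in each line, and BMP/FGF overlapped EGF/FGF through 1 library. The log2 fold change was 0.45 in BMP (SE 0.10, FDR 0.00079) and 0.25 in BMP/FGF (SE 0.11, FDR 0.0369), and between BMP/FGF and BMP it was -0.20 (95% interval -0.42 to 0.02, FDR 0.143).

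The call of Nr1h2 in BMP/FGF against EGF/FGF was lost without ANS4 BMP/FGF replicate 2 or without either replicate of BL6 EGF/FGF or BL6 BMP/FGF (FDR 0.0828 to 0.121). It was also lost with library size only (FDR 0.0653), without a filter (FDR 0.0600) and by limma-trend on the rlog values (FDR 0.0621). In the ANS4 libraries alone the log2 fold change was 0.11 (FDR 0.328). Without ANS4 BMP replicate 1 the difference between BMP/FGF and BMP was -0.28 and was called (FDR 0.0328).

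Nr1h3 (LXRα, chromosome 2, 91184061-91202834, minus strand, GRCm38), itself an LXR target in some cells, overlaps annotated noncoding genes on both strands. In EGF/FGF it stood at 1.97 and 2.07 CPM in ANS4 and 1.56 and 2.63 in BL6. In BMP it was 2.87 and 4.65 CPM in ANS4 and 4.09 and 4.17 in BL6. In BMP/FGF it was 4.09 and 4.85 CPM in ANS4 and 4.92 and 4.13 in BL6. All quiescent libraries lay above all EGF/FGF libraries, and BMP and BMP/FGF overlapped. The log2 fold change was 0.94 in BMP (SE 0.18, FDR 0.000158) and 1.13 in BMP/FGF (SE 0.18, FDR 2.02e-05), whereas BMP/FGF against BMP gave 0.19 (95% interval -0.16 to 0.54, FDR 0.390).

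Per kilobase of the longest transcript, Nr1h2 stood 21.4 ± 4.55 times as high as Nr1h3 in EGF/FGF, 14.9 ± 2.52 times in BMP and 11.3 ± 1.02 times in BMP/FGF (SD, n = 4). The ratio ranged from 15.2 to 26.0 in EGF/FGF and from 10.8 to 12.9 in BMP/FGF, without overlap, while BMP (12.8 to 17.6) overlapped both.

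Mylip, the receptor-degrading ligase and a classical LXR target, was the member that was called in none of the 3 comparisons. It is encoded on chromosome 13 at 45389742-45412022 (GRCm38, plus strand). Its level was 2.02 to 2.13 CPM in the 4 EGF/FGF libraries, 1.44 to 2.28 under BMP4 alone and 1.56 to 2.12 in BMP/FGF, so the conditions overlapped. The log2 fold change was -0.27 in BMP (95% interval -0.65 to 0.11, FDR 0.175), -0.17 in BMP/FGF (95% interval -0.55 to 0.20, FDR 0.381) and 0.10 between BMP/FGF and BMP (95% interval -0.29 to 0.49, FDR 0.706). Its RefSeq window held a TATA box 32 to 27 bases before the start.

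Lpl, encoded on chromosome 8 at 68880491-68907448 (GRCm38, plus strand), moved against most of the group. In EGF/FGF it stood at 25.4 and 26.9 CPM in ANS4 and 29.8 and 32.5 in BL6. Under BMP4 alone Lpl stood at 9.94 and 9.68 CPM in ANS4 and 8.76 and 8.03 in BL6. With FGF2 added it was 10.7 and 14.3 CPM in ANS4 and 11.3 and 13.0 in BL6. The 3 conditions did not overlap, with EGF/FGF the highest and BMP the lowest. Lpl fell by 1.65 on the log2 scale in BMP (SE 0.11, FDR 1.65e-10) and by 1.22 in BMP/FGF (SE 0.11, FDR 8.30e-09), and was 0.44 higher in BMP/FGF than in BMP (SE 0.12, FDR 0.00598). In the ANS4 libraries alone that last difference was 0.35 (FDR 0.0551).

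Lrp1, a large endocytic receptor that takes up Apoe-bearing particles, is encoded on chromosome 10 at 127538161-127621148 (GRCm38, minus strand), where an antisense gene (Gm16217) overlaps it. Whether the libraries kept strand is not given in the sources used here. In EGF/FGF it stood at 258 and 274 CPM in ANS4 and 228 and 243 in BL6. The BMP libraries held 624 and 731 CPM in ANS4 and 857 and 889 in BL6. The BMP/FGF libraries held 387 and 371 CPM in ANS4 and 561 and 539 in BL6. The conditions did not overlap, and the BMP libraries were the highest. Lrp1 rose by 1.61 on the log2 scale in BMP (SE 0.11, FDR 2.56e-10) and by 0.86 in BMP/FGF (SE 0.11, FDR 1.09e-06), and fell by 0.75 between BMP and BMP/FGF (SE 0.11, FDR 3.35e-05).

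The 4 libraries of each of the conditions compared lay apart without overlap for 9 of the 10 genes in BMP against EGF/FGF, for 6 in BMP/FGF against EGF/FGF and for 6 in BMP/FGF against BMP. Of all tested genes 71.1%, 75.8% and 35.6% did so. The 9 genes include Abcg1 and Apod, and the 6 in BMP/FGF against BMP include Apod, whose directions there were tied to the filter on low counts.

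Levels of different genes were compared per kilobase of the longest annotated transcript. Apoe stood first in all 3 conditions, at 600 ± 245 in EGF/FGF, 2390 ± 378 in BMP and 4800 ± 223 in BMP/FGF (CPM per kilobase, SD, n = 4). In EGF/FGF it was followed by Nr1h2, Lrp1, Abca1, Clu and Lpl, where Abca1 and Clu, and Clu and Lpl, overlapped in range. In BMP Clu came second at 455 ± 25.4, followed by Abca1 at 80.6 ± 11.3, Lrp1 at 52.0 ± 8.17 and Nr1h2 at 29.3 ± 5.66. Lpl (2.21 ± 0.213) and Nr1h3 (1.99 ± 0.382) overlapped there. In BMP/FGF the order was the same down to Nr1h3, with Clu at 246 ± 6.25, and Lrp1 (31.2 ± 6.67) and Nr1h2 (25.6 ± 2.12) overlapped. Mylip, Apod and Abcg1 filled the last 3 places in every condition.

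Lrp1 depends on the length used. Its longest transcript has 14888 bases and the median of its annotated transcripts 772.5, and with median lengths it took rank 2 in EGF/FGF and BMP/FGF and rank 3 in BMP. The ratios between members given above used the longest transcripts, and their size depends on that choice too. Abcg1 has 5832 bases (median 1085) and Nr1h2 has 1999 (median 689.5). How a ratio compares between conditions does not depend on the length.

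**Figure D3:**
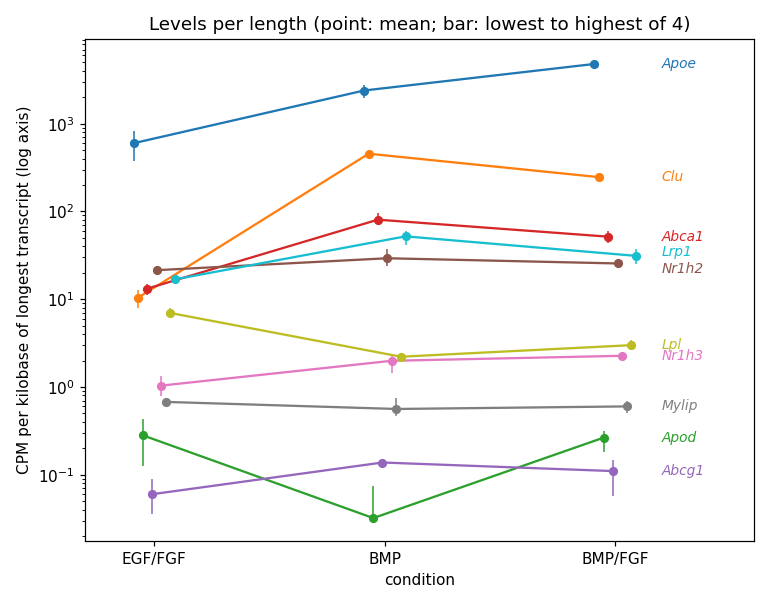
CPM per kilobase of the longest transcript (log axis) of the 10 genes in the 3 conditions, with points for means of 4 libraries and bars from the lowest to the highest library (the lowest values of Apod in BMP, at 0, cannot be drawn). Apoe leads throughout, and Clu moves from the fifth place in EGF/FGF to the second in BMP and BMP/FGF.

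Averaged over conditions, 1 of the 10 genes differed between BL6 and ANS4, Apoe, at -0.51 on the log2 scale in BL6 (SE 0.11, FDR 0.0279), where 1.80% of all tested genes were called in either direction. The change from EGF/FGF to BMP differed between the lines for 4 of the 10 genes (Abca1, Apoe, Clu and Lrp1), against 9.02% of all tested genes, and each of the 4 rose more in BL6. The change from BMP to BMP/FGF differed for Apoe, against 13.5% of all tested genes. With scaling by library size only, the share of line differences that were larger in BL6 moved from 59.8% to 71.0% of all called genes in the first of these tests and from 49.3% to 28.0% in the second.

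The mean BL6 level of Apoe was 0.478 times that of ANS4 in EGF/FGF, 0.765 times in BMP and 0.936 times in BMP/FGF, so the lines drew together as the level rose. The rise in BMP was 0.68 larger in BL6 on the log2 scale (SE 0.09, FDR 0.000132), and the further rise from BMP to BMP/FGF was 0.29 larger (SE 0.09, FDR 0.0318). The second of these was less firm. It was 0.22 with scaling by library size only (FDR 0.0976), and was not called without ANS4 BMP replicate 1, ANS4 BMP/FGF replicate 2, BL6 BMP replicate 1 or either BL6 BMP/FGF replicate (FDR 0.0529 to 0.139). The difference averaged over conditions was not called without either ANS4 EGF/FGF, ANS4 BMP or BL6 EGF/FGF replicate or without BL6 BMP replicate 1 (FDR 0.0541 to 0.0741).

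For the other 3 genes the mean of BL6 was below that of ANS4 in EGF/FGF and above it in BMP. The ratio of the line means of Clu was 0.675 in EGF/FGF, 1.05 in BMP, where the libraries of the lines overlapped, and 0.977 in BMP/FGF, and its rise was 0.63 larger in BL6 (SE 0.11, FDR 0.00241). For Abca1 the ratio was 0.766 in EGF/FGF, 1.24 in BMP and 1.39 in BMP/FGF, and the rise in BMP was 0.70 larger in BL6 (SE 0.09, FDR 0.00018). For Lrp1 the ratio was 0.886 in EGF/FGF, 1.29 in BMP and 1.45 in BMP/FGF, and the rise was 0.54 larger (SE 0.10, FDR 0.00307). The scaling factors of the BL6 BMP libraries were the highest and those of the BL6 BMP/FGF libraries the lowest of the 12, and the 4 calls were kept with library size only. When BL6 BMP replicate 1 was left out, Nr1h2 was called as well, with a rise 0.61 larger in BL6 (FDR 0.00495), and so was Abca1 from BMP to BMP/FGF at 0.26 (FDR 0.0177).

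**Figure D4:**
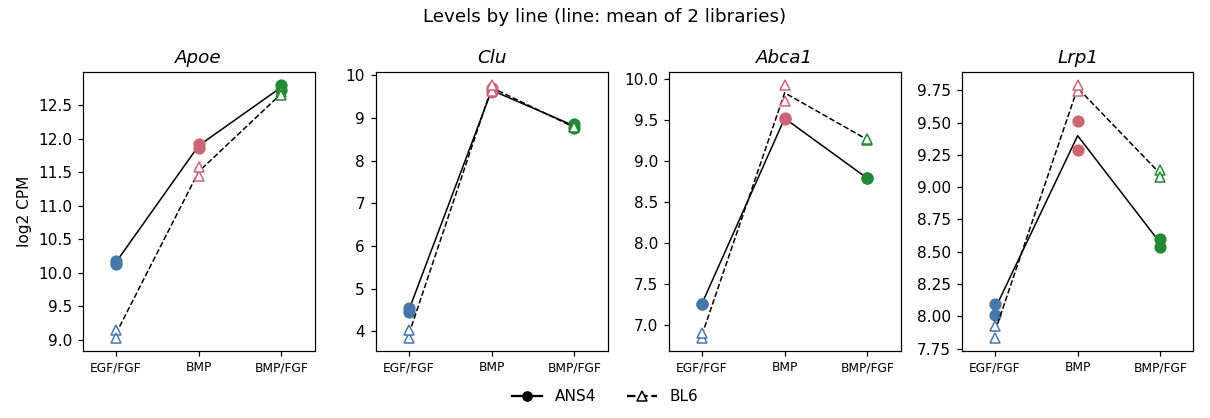
Log2 CPM (y axis, not starting at 0) of Apoe, Clu, Abca1 and Lrp1 by condition (x axis), with filled circles and solid lines for ANS4 and open triangles and dashed lines for BL6, each line joining means of 2 libraries. The BL6 line starts below the ANS4 line in EGF/FGF in all 4 panels, meets it for Clu and crosses above it for Abca1 and Lrp1.

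Several cell types express these genes in the brain, so markers were read beside them. Of 12 microglia markers 6 were in the table and 3 were tested, and their summed level was 13.0 to 18.9 CPM in EGF/FGF, 5.81 to 7.56 under BMP4 alone and 9.38 to 12.01 in BMP/FGF. Csf1r, a defining microglia marker, was at 0 in all BMP libraries but reached at most 0.1033 CPM in any library, so that 0 says little. Itgam and Cd68 stood lower under BMP4 alone than in EGF/FGF, without overlap. P2ry12 went the other way, with 0.8265 to 1.873 CPM in EGF/FGF and 1.865 to 2.594 under BMP4 alone, which overlapped. Of 6 endothelial markers 4 were in the table, with 39.1 to 47.1 CPM in EGF/FGF, 5.58 to 9.29 under BMP4 alone and 15.0 to 19.0 in BMP/FGF. The remaining sums, apart from that of the NSC markers, were higher in both quiescent conditions than in EGF/FGF, without overlap, as Apoe and Clu were. Of these, 3 of 4 choroid plexus markers were in the table, at 0.155 to 0.310 CPM in EGF/FGF, 0.938 to 1.55 under BMP4 alone and 0.593 to 1.06 in BMP/FGF. Of 6 pericyte and fibroblast markers 5 were in the table, at 3.82 to 4.70 CPM in EGF/FGF, 4.92 to 5.98 under BMP4 alone and 6.47 to 10.1 in BMP/FGF. Lum, at 0 in BMP, reached at most 0.1035 CPM in any library. The larger sums were those of the astrocyte markers given above, of 6 oligodendrocyte markers (25.6 to 30.5 CPM in EGF/FGF, 155 to 182 under BMP4 alone and 257 to 266 in BMP/FGF) and of 6 ependymal markers, 5 of them in the table (64.4 to 80.9 CPM in EGF/FGF, 239 to 292 under BMP4 alone and 228 to 241 in BMP/FGF). Their part in the results was not tested.

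Around the 10 genes, 91 further genes of the same pathways were read from 7 lists, of which 85 were in the table and 71 were tested. In BMP 44 of the 71 were higher and 19 lower than in EGF/FGF, in BMP/FGF 42 were higher and 22 lower, and in BMP/FGF against BMP 15 were higher and 26 lower. Of all tested genes 40.8% were higher and 38.8% lower in the first comparison, 40.9% and 38.0% in the second and 20.1% and 21.3% in the third, and as shares of the 71 the list counts were 62.0% and 26.8%, 59.2% and 31.0%, and 21.1% and 36.6%. The medians of the 71 were 0.63, 0.51 and -0.13 on the log2 scale, beside 0.02, 0.02 and -0.0035 for all tested genes.

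Of 14 other secreted lipid carriers 6 passed the filter on low counts, and all of these 6 rose in both quiescent conditions, with medians of 3.26 and 2.89. Among them, Apoh (mean 0.168 CPM in EGF/FGF) and Apoc4 (mean 0.0130 CPM) passed the filter only through quiescent libraries. Their direction of change was thus fixed by the filter, and the count of 6 and the medians include them. Apoc1, a small exchangeable apolipoprotein, rose from 0.569 ± 0.152 CPM in EGF/FGF to 8.22 ± 1.16 (BMP) and 6.39 ± 1.06 (BMP/FGF) (SD, n = 4), with log2 fold changes of 3.83 (FDR 5.05e-12) and 3.48 (FDR 3.11e-11). Apoh rose from 0.168 ± 0.122 to 2.98 ± 0.629 and 2.28 ± 0.228 CPM. Between BMP/FGF and BMP, Ptgds was higher (0.35, FDR 0.00204), Pltp (-0.43, FDR 0.00073) and Apoc1 (-0.36, FDR 0.0464) were lower, and 3 were not called. The call of Apoc1 there was lost without either ANS4 BMP or ANS4 BMP/FGF replicate, BL6 BMP replicate 1 or BL6 BMP/FGF replicate 2 (FDR 0.0721 to 0.131).

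Of 11 tested lipid transporters of the ABC family and Scarb1, 6 rose and 4 fell in BMP, while 7 rose and 4 fell in BMP/FGF. Abca8a rose by 3.97 in BMP and 2.92 in BMP/FGF, while its near copy Abca8b fell by 1.92 and 1.98, and the division of reads between these similar genes is uncertain. Abca8a, with a mean of 0.272 CPM in EGF/FGF, passed the filter on low counts only through quiescent libraries. Abca7 rose by 1.39 in BMP (9.56 ± 1.00 to 25.0 ± 2.91 CPM, FDR 6.34e-10), and Abcg4, a sterol pump close to Abcg1, rose by 1.63 in BMP/FGF (4.59 ± 0.181 to 14.3 ± 0.722 CPM, FDR 2.98e-11). Abcg2, which exports drugs and dyes from stem cells, fell by 1.42 in BMP and 1.00 in BMP/FGF. In BMP/FGF against BMP 4 were higher and 4 lower, among them Scarb1, the HDL receptor, at 0.58 (FDR 8.18e-07), Abca6 at 0.59 (FDR 0.0327), Abca8a at -1.05 (FDR 0.000404) and Abca5 at -0.56 (FDR 0.000343). The call of Abca6 was lost without ANS4 BMP replicate 2, ANS4 BMP/FGF replicate 1 or either BL6 BMP/FGF replicate (FDR 0.0509 to 0.118).

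Of 9 tested LXR partners and coregulators, 5 rose and 3 fell in BMP, while 4 rose and 4 fell in BMP/FGF. The RXR genes Rxra (0.78 in BMP and 0.67 in BMP/FGF) and Rxrb (0.67 and 0.53) rose, while the coactivators Ncoa3 (-0.56 and -0.69) and Ncoa5 (-0.18 and -0.49) fell. Ncoa5 went from 55.0 ± 4.02 CPM in EGF/FGF to 48.5 ± 3.40 (BMP) and 39.0 ± 1.79 (BMP/FGF) (SD, n = 4). Between BMP/FGF and BMP 3 were lower and 6 not called, with Ncoa5 at -0.31 (FDR 0.000698) and Ncoa2 at -0.27 (FDR 0.0032).

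Of 12 tested further LXR targets, 9 rose and 2 fell in BMP, while 9 rose and 3 fell in BMP/FGF. Pltp, the phospholipid transfer protein, rose from 18.9 ± 1.94 CPM to 122 ± 17.8 in BMP and 89.8 ± 5.00 in BMP/FGF, with log2 fold changes of 2.69 (FDR 3.85e-14) and 2.26 (FDR 3.70e-13). Arl4c (-0.32 and -0.87) and Ttc39b (-0.53 and -0.82) fell in both. In BMP/FGF against BMP 3 were higher and 6 lower. Scd1, the fatty acid desaturase, was 0.82 higher (1700 ± 517 CPM in BMP and 2905 ± 123 in BMP/FGF, FDR 4.62e-05), with 0.39 in ANS4 and 1.26 in BL6, and Arl4c was lower at -0.55 and Pltp at -0.43. Abcg4 was 0.25 higher (FDR 0.0265), a call lost without ANS4 BMP replicate 2, ANS4 BMP/FGF replicate 1, BL6 BMP replicate 1 or BL6 BMP/FGF replicate 2 (FDR 0.055 to 0.0943).

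Of 17 lipoprotein receptors and their regulators, all tested, 9 rose and 7 fell in BMP, while 8 rose and 8 fell in BMP/FGF. Among those that rose, Lrp1b was higher by 2.46 in BMP and 1.67 in BMP/FGF on the log2 scale, Lrp4 higher by 1.78 in BMP/FGF (166 ± 28.6 to 564 ± 64.8 CPM) and the sorting receptor Sorl1 higher by 1.80 in BMP (45.9 ± 3.14 to 160 ± 16.7 CPM). Cd36, a fatty acid transporter, fell by 1.63 in BMP and 1.56 in BMP/FGF (FDR 6.27e-07), Scarb1 fell by 1.33 in BMP (116 ± 1.74 to 46.4 ± 3.06 CPM, FDR 6.45e-13), and Lrp2 (megalin) fell by 1.92 in BMP/FGF. Between BMP/FGF and BMP 1 was higher, Scarb1, and 9 were lower, with Lrp2 at -1.44 (FDR 1.09e-07) and Lrp1b at -0.78 (FDR 0.00252).

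Of 9 tested lipases and lipase helpers, 6 rose and 1 fell in BMP, while 5 rose and 1 fell in BMP/FGF. Mgll, monoacylglycerol lipase, rose from 12.04 ± 0.628 CPM to 94.6 ± 21.1 in BMP and 115 ± 7.44 in BMP/FGF, by 2.95 (FDR 2.51e-14) and 3.25 (FDR 7.45e-15). Pnpla2, the lipase that opens lipid droplets, rose by 0.89 and 0.61, and Lipg, endothelial lipase, fell by 1.04 and 0.26, the second with an FDR of 0.0409 that was lost in 4 of 8 fits without 1 library (ANS4 EGF/FGF replicate 2, ANS4 BMP/FGF replicate 1, BL6 EGF/FGF replicate 2 and BL6 BMP/FGF replicate 1, FDR 0.0633 to 0.157). In BMP/FGF against BMP 4 were higher and 1 lower, with Lipg at 0.78 (FDR 6.81e-05), Mgll at 0.30 (FDR 0.0111) and Pnpla2 at -0.28 (FDR 0.00715). The call of Mgll was lost in the ANS4 libraries alone (0.11, FDR 0.165) and without line as a term (FDR 0.0578). Of the 71 tested genes of all 7 lists 1 was past 1.5 in that comparison, beside 1.59% of all tested genes. This was Angptl4, a secreted inhibitor of Lpl named here after its values were seen, at a log2 fold change of 1.59 (FDR 0.00306). It was 1.39 to 1.80 with 1 library left out and 0.53 by limma-trend on the rlog values, and was not called in the BL6 libraries alone (1.57, FDR 0.0519).

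Of 11 tested oxysterol enzymes and sterol handling genes, 6 rose and 3 fell in BMP, with equal numbers in BMP/FGF. Cyp46a1, the enzyme that makes 24S-hydroxycholesterol, an LXR ligand of the brain, rose from 10.1 ± 1.62 CPM in EGF/FGF to 243 ± 23.4 (BMP) and 191 ± 7.63 (BMP/FGF) (SD, n = 4), by 4.59 (FDR 6.64e-17) and 4.25 (FDR 2.09e-16) on the log2 scale. Cyp7b1, which further oxidizes oxysterols, rose by 2.17 and 2.70. Nceh1, a cholesterol ester hydrolase, fell by 0.75 (FDR 9.64e-08) and 0.58 (FDR 2.38e-06), and Stard4, a carrier of sterol within cells, fell by 1.49 and 0.59. Between BMP/FGF and BMP 4 were higher, with Stard4 at 0.91 (FDR 1.24e-06) and Cyp7b1 at 0.53 (FDR 0.00734), and 3 lower, with Cyp46a1 at -0.34 (FDR 0.00167) and Stard3 at -0.27 (FDR 0.00338).

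**Figure D5:**
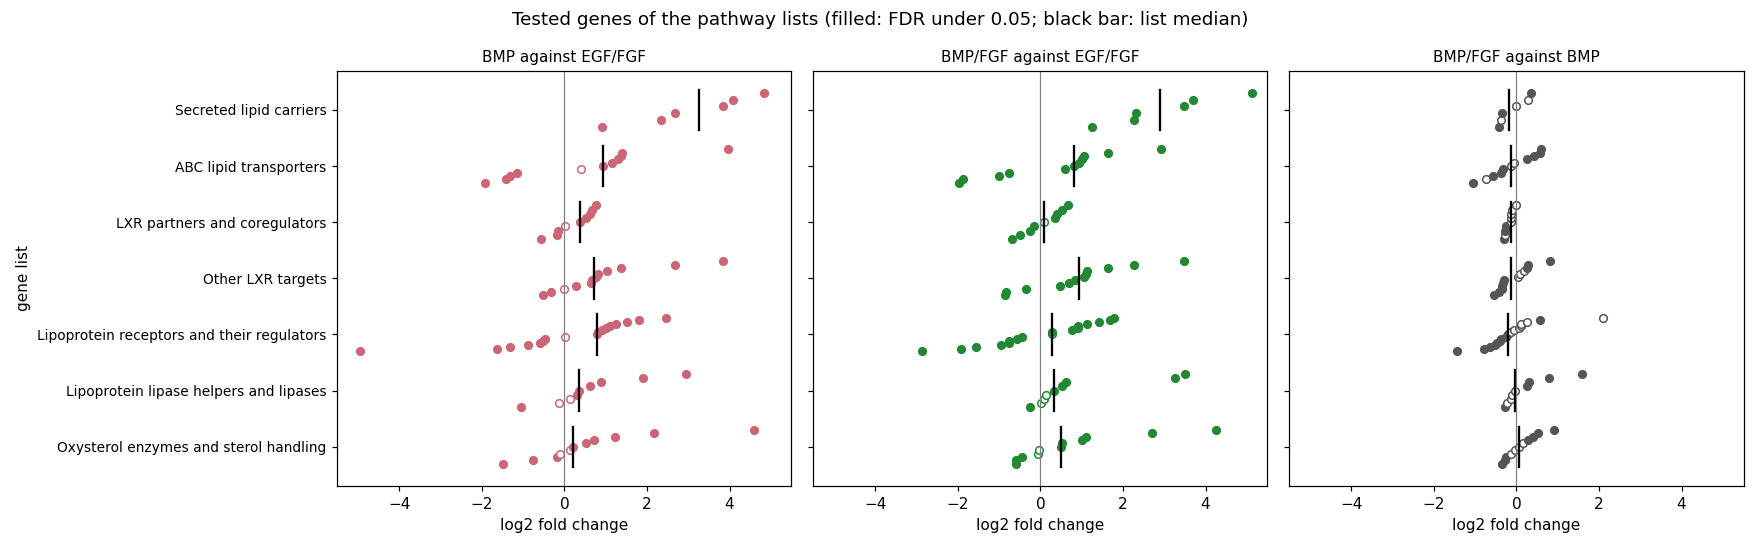
Log2 fold change (x axis) of the 71 tested genes of the 7 pathway lists (y axis, 1 row per list) in the 3 comparisons, filled where the FDR was under 0.05, with a black bar at the list median. The secreted carriers lie to the right of 0 in both comparisons against EGF/FGF (medians 3.26 and 2.89), the receptors lie on both sides, and BMP/FGF against BMP shows smaller changes. Of these carriers, Apoh and Apoc4 passed the filter on low counts only through quiescent libraries.

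Across the lists, the change from EGF/FGF to BMP differed between the lines for 11 of the 71 genes (3 larger and 8 smaller in BL6), and the change from BMP to BMP/FGF for 14 (11 larger and 3 smaller). These are 15.5% and 19.7% of the 71, beside 9.02% and 13.5% of all tested genes. The counts moved with single libraries. In the first test they were 6 without ANS4 EGF/FGF replicate 1, 7 without ANS4 EGF/FGF replicate 2, ANS4 BMP replicate 2 or BL6 EGF/FGF replicate 1, and at most 16 otherwise. In the second they were 8 without either ANS4 BMP/FGF replicate, 9 without either BL6 BMP/FGF replicate, and 21 and 23 without BL6 BMP replicates 1 and 2. With library size only they were 8 (3 larger and 5 smaller) and 13 (10 larger and 3 smaller), and the first was 6 by limma-trend on the rlog values and in a fit to the 8 libraries compared. Scd1 (0.87) and Scd2 (0.69), named here after their values were seen, were among the 14, with a change from BMP to BMP/FGF that was larger in BL6 on the log2 scale.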

How the data were processed

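RNA-seq of 12 libraries (2 adult NSC lines, 3 conditions, 2 replicates each) was analysed. The authors made the count table by trimming reads (Trim Galore 0.5.0), estimating transcript abundance on the mm10 transcriptome (kallisto 0.44.0) and summing to genes with Tximport, and the deposited counts are those estimates rounded to whole numbers. A second deposited table holds log2 values from the regularized logarithm of DESeq2 (1.27.32 per the labels), used in an alternative only. A recomputed rlog differed from it by a median of 0.00793.

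Genes were filtered with edgeR's filterByExpr (minimum count 10, 4053 of 17365 genes left out), scaled by TMM and fitted with glmQLFit in edgeR 4.0.16 (R 4.3.3) with condition and line as terms, over all 12 libraries. A gene low in 1 condition could pass this filter through libraries of the others, and the direction of its change then follows from the filter. Two-sided glmQLFTest p-values of each contrast were adjusted over 13312 genes (Benjamini-Hochberg) and called under 0.05. Line differences came from a line by condition interaction, fitted over the same libraries. The 1.5 threshold is that of the study. Log2 CPM used a prior count of 2. Exact Poisson intervals cover counting error only. With 2 replicates per line and condition, stated to be biological but with no culture named, p-values measure the spread between these libraries. Replicate differences were almost uncorrelated between conditions (-0.0711 to 0.0529). This cannot show that libraries were unpaired, and the labels do not say whether a replicate number marks cultures treated together. Counts of 3 or fewer were read as close to the limit of detection, but entered the fits and ratios unchanged.

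The members and lists were chosen with earlier results of these data known. Some genes of these lists are not reported here, and counts, medians and sums over the lists leave them out. Named pathway genes are, per list and comparison, the 2 largest rises and 2 largest falls among called genes that averaged 1 CPM or more and had 1 direction in both lines. For each member the 2 genes nearest in pattern had the smallest root mean square difference of centred log2 CPM over 12 libraries. Marker lists were those of NSCs, astrocytes, microglia, endothelial cells, pericytes and fibroblasts, oligodendrocytes, choroid plexus and ependymal cells. Gene positions and transcript lengths are from GENCODE vM21 (GRCm38), promoter windows from RefSeq (GRCm38.p6), of which the 250 bases before each start were read. Python 3.11.15 with pandas 2.3.3 and matplotlib 3.10.9 was used for these and for the figures. Simulated data were used to test the main and the interaction fit, for BMP/FGF against BMP only. This was done with edgeR, DESeq2 and limma-trend, the last on log2 CPM in place of rlog values. Alternatives were DESeq2 1.42.0 (size factors and Wald test), library size only, no filter, limma-trend 3.58.1 on the rlog values, no line covariate, a replicate block, a fit to the 8 libraries of a comparison, either line by itself, and leaving out libraries in turn.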

Additional observations from a re-analysis of the deposited data

Results flagged for a closer look

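In 2 of the 30 groups of 4 libraries (10 genes in 3 conditions) 1 library lay far from the other three, where chance flags about 1 group in 20. Both were the same library, ANS4 BMP/FGF replicate 1. It held 462.3 CPM of Clu, beside 438.7 to 440.3 in the other BMP/FGF libraries, and 44.8 CPM of Nr1h2, beside 52.6 to 53.5. Leaving it out changed no call of Clu or Nr1h2.

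The change from EGF/FGF to BMP differed between the lines for Abca1 (0.70 larger in BL6 on the log2 scale), Apoe (0.68), Clu (0.63) and Lrp1 (0.54), each by the interaction test of edgeR. The change from BMP to BMP/FGF differed for Apoe (0.29 larger in BL6). The 2 BL6 BMP libraries were the replicates that differed most from each other, with a chi-square per degree of freedom of 12.2 over genes, beside 2.12 to 4.68 in the other groups. The part of this spread in the line differences was not tested beyond leaving out each library.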

How the results depend on the processing

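For the 10 genes, 852 values were computed under alternatives, of which 790 kept their direction and their side of the threshold, 37 lost a call, 3 gained one and 22 changed sign. Every change of sign was in a difference that was not called, and its cause was not tested. For the other pathway genes, in the comparisons for which the rule named them, and for Angptl4, Scd1 and Scd2, added after the data were seen, 1248 of 1290 values were kept and 42 lost a call. The number of the 10 genes called was 9 in BMP, 8 in BMP/FGF and 6 between them, and was 6, 3 and 1 with the added requirement of 1.5, by construction. With 1 library left out it was 9, 6 to 7 and 6 to 7. Line differences numbered 4 in BMP against EGF/FGF (4 to 5 with 1 library left out). Those in BMP/FGF against BMP numbered 1, but 0 with library size only and with limma-trend on rlog values (0 to 1 with 1 library left out), and the difference averaged over conditions numbered 1, but 0 without a filter, where more genes were tested (0 to 1 with 1 library left out). With the replicate block the numbers were 9, 7 and 6, and 4 and 1 for line differences, and the call it ended was that of Abcg1 in BMP/FGF (FDR 0.0518). The block was not run for lines averaged over conditions, because replicate blocks lie within lines.

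The differences that changed sign were these. Abcg1 between BMP/FGF and BMP was 0.012 in ANS4 alone. Apod in BMP/FGF against EGF/FGF ranged from -0.34 to 0.23 with 1 library left out, its line difference in BMP against EGF/FGF from -3.41 to 3.47 (-0.060 by limma-trend) and its line difference in BMP/FGF against BMP from -3.47 to 3.41 (0.043 by limma-trend). Line differences of Nr1h3 ranged from -0.25 to 0.50 in BMP against EGF/FGF and from -0.51 to 0.20 in BMP/FGF against BMP, where those of Nr1h2 ranged from -0.32 to 0.16 and those of Mylip from -0.39 to 0.11. Depth limits Apod and Abcg1, with at most 17 counts in any library.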

Other observations

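Apoe lies in a cluster of apolipoprotein genes. Of the other genes annotated within 50 kb of it on chromosome 7 (GRCm38), 6 were tested, a set read after the pathway results were known. On the side of the other apolipoproteins, Apoc1 (19689481-19692660) had a mean of 0.569 CPM in EGF/FGF, 8.22 in BMP and 6.39 in BMP/FGF, and Apoc4 (19678083-19681479), which overlaps the annotated gene Gm44805, had 0 to 0.0520 CPM in EGF/FGF, 0.207 to 0.883 under BMP4 alone and 0.539 to 0.950 in BMP/FGF. Gm44805 was at 0 in EGF/FGF, and reads of the overlap could be assigned to either gene. Beyond them Clptm1 rose by 0.92 in BMP on the log2 scale (SE 0.07, FDR 8.07e-10), and on the far side Tomm40 fell by 0.68 (SE 0.09, FDR 1.13e-06) and Nectin2 rose by 0.29 (SE 0.07, FDR 0.000943). From BMP to BMP/FGF Apoe rose by 1.03, whereas Apoc1 was -0.36 (FDR 0.0464) and Apoc4 0.29 (FDR 0.589).

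The genes nearest to each member in pattern over the 12 libraries, by root mean square difference (RMS) of centred log2 CPM, give the shape of each pattern. For Apoe they were Mmd2 (RMS 0.165), with mean CPM of 118 in EGF/FGF, 436 in BMP and 908 in BMP/FGF, and Irgm2 (0.171). For Clu they were Cfap126 (0.233), which is also one of the ependymal markers and stood at 1.33, 45.9 and 24.9 CPM in the same order, and Psd2 (0.245). Those of Abca1 were Wnt9a (0.168) and Tmem8 (0.168), and those of Lrp1 were Rhou (0.151) and Amotl2 (0.161). Lpl was nearest to Eif2s1 (0.110), a subunit of a translation initiation factor, and Rgs16 (0.121), both highest in EGF/FGF. The receptors were nearest to Btbd2 (0.0743) and Casp9 (0.0809) for Nr1h2 and to Mterf2 (0.143) and Hexdc (0.179) for Nr1h3, while Mylip was nearest to Myo9a (0.0830) and Grk3 (0.0880). Abcg1 was nearest to Serinc4 (0.171) and Tmem179 (0.220). Apod had no close neighbour, with Grm5 (0.556) and Chl1 (0.564) as the nearest. These are descriptions over libraries that share conditions and lines.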
